A study of Homo sapiens with 24 samples.

Results

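The 44 genes described here carry out homologous recombination and the repair of DNA crosslinks by the Fanconi anemia pathway. They were taken as a fixed list of gene symbols, and all 44 were found among the 58721 gene rows of the count tables. RNA-seq was performed in A549, a human lung adenocarcinoma cell line. Cells were transfected with 25 nM siRNA against the transcription factor MYBL2 (siMYBL2, n = 4), 25 nM siRNA against the transcription factor FOXM1 (siFOXM1, n = 4) or scrambled siRNA (siControl, n = 4). In a separate experiment both siRNAs were given together (siBoth, n = 3) beside scrambled siRNA (siControl_Both, n = 3). Cells were also treated with 20 µM FDI-6, a forkhead domain inhibitor, for 24 h (FDI6, n = 3) and compared with control_FDI6 (n = 3). The study names this control as DMSO in a supplementary table title and as untreated cells in a figure caption. The siMYBL2 and siFOXM1 groups share the 4 siControl libraries. All libraries come from 1 cell line. The study states biological replicates without saying how cultures were separated, so the p-values measure the spread between these libraries.

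Homologous recombination repairs a broken chromosome by copying an intact sister. The ends are cut back to single strands, a recombinase is loaded onto them with the help of BRCA1, PALB2 and BRCA2, the filament invades the sister, and the joined molecules are then dissolved or cut apart. In the Fanconi pathway a core complex attaches ubiquitin to FANCD2 and FANCI at a stalled fork, and recombination genes finish the repair. Many of these genes are transcribed mostly in S and G2 phase of dividing cells.

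Each library held between 16487394 and 30140550 read pairs assigned to genes, with the fewest in the FDI6 group (16487394 to 17741253). Members had between 39 and 4976 counts in a library, and all 44 passed the filter on low counts in every comparison. Levels are given as CPM (counts relative to the library's total), scaled by edgeR's TMM factors within each comparison. Both knockdowns were checked on the targets. MYBL2 stood at 4.16% of control in siMYBL2 and 4.91% in siBoth, and FOXM1 at 9.59% in siFOXM1 and 9.67% in siBoth. FOXM1 was also lower in siMYBL2 (60.3%), while MYBL2 stood at 96.1% in siFOXM1. In FDI6, MYBL2 was at 70.0% and FOXM1 at 77.5%. Replicate 4 of siMYBL2, siFOXM1 and siControl stood apart, with correlations of 0.967 to 0.983 to the other libraries of its group, against 0.987 to 0.993 among those. FDI6 replicate 1 correlated at 0.985 to 0.987 with the other FDI6 libraries, which correlated at 0.995 with each other. More read pairs were not aligned in the double knockdown experiment (7.68% to 10.9%, higher in siBoth than in siControl_Both) than elsewhere (1.73% to 3.03%). The epithelial keratins KRT8 and KRT18 were at 1019 CPM or more in every library. The other epithelial markers were lower, with KRT19 at 38.0 to 353, CDH1 at 9.31 to 91.0 and EPCAM at 1.66 to 37.8 CPM. Over the 7 markers of other cell types the summed level was 5.47 to 59.7 CPM, mostly COL1A1, and CD3E was at 0 in every library.

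Promoters of 5 members that carry the results are shown first, because MYBL2 and FOXM1 act with complexes that read short promoter words. RefSeq windows (GRCh38.p14, 250 bases before to 50 after a start site) were given for 38 of the 44 members and for 9 of the 10 members called against a treatment's own control. Where a gene had several windows, the one nearest the start of its canonical transcript was used. Both strands were searched for the cell cycle homology region (CHR, TTTGAA or TTCGAA), an E2F word (TTTCCCGC, TTTCGCGC, TTTGCCGC or TTTGGCGC) and the NF-Y word CCAAT. No word contains another, although neighbouring words can share letters at their edges. The 5 windows below are examples from genes that fell with siMYBL2 (RBBP8, XRCC3), siFOXM1 (RAD51AP1) or siBoth (RMI1), or rose with FDI-6 (ATM). Those of SLX4, BRCA2, FANCB and RAD54L were searched too and are not shown. Capitals mark the matches, and ATTGG is CCAAT read on the other strand.
RBBP8, chr18:22933078-22933377, plus strand: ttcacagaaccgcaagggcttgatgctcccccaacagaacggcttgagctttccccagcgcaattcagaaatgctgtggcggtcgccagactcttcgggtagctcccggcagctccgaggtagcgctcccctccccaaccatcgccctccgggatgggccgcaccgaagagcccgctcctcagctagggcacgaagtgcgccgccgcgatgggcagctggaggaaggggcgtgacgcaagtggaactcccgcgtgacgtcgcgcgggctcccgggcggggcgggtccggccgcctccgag
XRCC3, chr14:103715402-103715701, minus strand: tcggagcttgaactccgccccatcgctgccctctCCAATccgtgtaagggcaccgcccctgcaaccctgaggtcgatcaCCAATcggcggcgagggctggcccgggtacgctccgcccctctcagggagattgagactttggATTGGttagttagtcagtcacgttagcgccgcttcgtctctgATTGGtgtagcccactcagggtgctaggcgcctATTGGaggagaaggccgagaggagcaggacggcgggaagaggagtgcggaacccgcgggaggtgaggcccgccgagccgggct
RAD51AP1, chr12:4538640-4538939, plus strand: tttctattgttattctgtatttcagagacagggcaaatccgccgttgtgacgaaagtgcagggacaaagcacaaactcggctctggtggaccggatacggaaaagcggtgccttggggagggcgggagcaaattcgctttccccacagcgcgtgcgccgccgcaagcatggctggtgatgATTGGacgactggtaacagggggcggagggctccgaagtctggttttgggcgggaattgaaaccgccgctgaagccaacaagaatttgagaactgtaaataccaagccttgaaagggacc
RMI1, chr9:83980555-83980854, plus strand: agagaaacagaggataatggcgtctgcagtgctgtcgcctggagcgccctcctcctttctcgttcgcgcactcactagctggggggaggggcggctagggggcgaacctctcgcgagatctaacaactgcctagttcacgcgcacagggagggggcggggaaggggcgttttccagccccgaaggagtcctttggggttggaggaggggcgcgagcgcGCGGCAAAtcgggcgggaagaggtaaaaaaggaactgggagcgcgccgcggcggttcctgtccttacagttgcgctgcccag
ATM, chr11:108222817-108223116, plus strand: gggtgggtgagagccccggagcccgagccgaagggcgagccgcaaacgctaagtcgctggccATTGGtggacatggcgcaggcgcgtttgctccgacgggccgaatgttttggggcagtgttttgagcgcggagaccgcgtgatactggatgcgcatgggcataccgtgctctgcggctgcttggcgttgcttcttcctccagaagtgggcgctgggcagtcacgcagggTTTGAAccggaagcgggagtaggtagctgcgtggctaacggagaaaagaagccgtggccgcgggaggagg
XRCC3 held 5 NF-Y words, all before the start site. RAD51AP1 held 1 NF-Y word, RMI1 held 1 E2F word, and RBBP8 held none of the words. Of the called members not shown, SLX4, BRCA2 and FANCB held none either, and RAD54L held 2 NF-Y words. ATM, which differed by 0.01 (log2) with siMYBL2, was the only one of those 9 with a CHR word in its window, 20 bases before the start. Among the 38 members with a window, CHR words were present in 13.2%, against 16.4% of all 35116 windows. E2F words were present in 15.8% of members, against 3.31% of all windows, and NF-Y words in 44.7% against 34.6%. These member shares count 1 window per gene. Counted per window, as for all windows, the 52 windows of the members held CHR words in 9.62%, E2F words in 13.5% and NF-Y words in 42.3%. Of the 9 called members with a window, 1 held an E2F word and 4 an NF-Y word. MYB-type words were not searched. A match is a description of letters, and binding was not measured in these libraries. The study mapped MYBL2 and FOXM1 binding in A549 cells by ChIP-seq, and those sites were not used here.

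The first question was how far the members depend on each factor. A gene was called changed at an adjusted p under 0.05 (edgeR's quasi-likelihood test, Benjamini-Hochberg over all genes tested) and a fold change over 1.5. With siMYBL2, 3 of the 44 members fell (RBBP8, XRCC3 and SLX4) and 0 rose. Of all genes tested, 3.52% were called lower and 4.38% higher. The median log2 fold change of the members was -0.27, against 0.01 for all genes, and 38 of 44 were below 0. Most members thus sat below their control by less than the fold required for a call. A smaller share of cells in S and G2 phase and less RNA of a gene per cell cannot be told apart in bulk libraries. At the adjusted p alone, 10 members were lower and 0 higher, against 9.53% lower and 8.53% higher over all genes. At an unadjusted p under 0.05 edgeR also gave 0 members higher, and DESeq2 called 0 higher. When the replicate numbers, which pair these libraries, were fitted as a block, FANCB was added to the members that fell (4 of 44, background 4.71% lower and 7.68% higher). At the adjusted p alone the block gave 28 members lower and 1 higher (MUS81), against 23.1% lower and 23.6% higher of all genes. The count of calls moved when single libraries were left out. Without siMYBL2 replicate 4 it was 0, and without siControl replicate 3 it was 1 (SLX4). Without siMYBL2 replicate 2 it was 6, which added FANCB, RAD54B and FANCG. Over all genes, 506, 511 and 652 were called lower in those fits. These fits kept the same-numbered library of the other group and had no block. With replicate 4 left out of both groups, RBBP8 and XRCC3 stayed called and SLX4 did not (-0.52). That fit called 584 of all genes lower.

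With siFOXM1, RAD51AP1 was the only member that fell and 0 rose, against 0.591% of all genes called lower and 0.0755% called higher.. The median of the members was -0.04, and 28 of 44 were below 0. The adjusted p alone gave the same 1 member lower and 0 higher, with a background of 1.09% lower and 0.277% higher. At an unadjusted p under 0.05, 0 members were higher, and DESeq2 called 0 higher. With the block the called member was again RAD51AP1 (background 1.47% lower and 1.05% higher). At the adjusted p alone the block gave 9 members lower and 0 higher, against 14.0% and 12.3% of all genes.

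With siBoth, RBBP8, BRCA2 and RMI1 fell and 0 members rose, against 3.64% of genes lower and 2.80% higher. The median was -0.26, against 0.02 for all genes, and 40 of 44 members were below 0. At the adjusted p alone 8 were lower and 0 higher (background 7.77% and 4.55%). At an unadjusted p under 0.05, 1 member was higher, and DESeq2 called 0 higher. The block added FANCB to the members that fell (4 of 44, background 5.08% lower and 6.62% higher), and at the adjusted p alone it gave 24 lower and 1 higher (MUS81), against 18.5% and 16.3%. Of all called genes 43.5% were higher, and 59.4% with upper-quartile scaling, under which 0 members were called lower. Removing trends of GC content and length also left 0 members called lower, with a median of -0.21 and 33 members below 0. Without siBoth replicate 1 or 2, or siControl_Both replicate 2 or 3, RBBP8 was the 1 member called, and without siBoth replicate 3 there were 5, with EXO1 and FANCB added. Over all genes 414 to 520 were called lower in the former fits and 683 in the latter.

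FDI-6 gave changes in both directions. XRCC3 and RAD54L fell, and BRCA2, ATM, WRN and FANCB rose, against 5.77% of all genes called lower and 8.00% higher. At the adjusted p alone 6 members were lower and 10 higher, against 17.9% and 21.0%, so neither share of members stood far from that of all genes. The median was 0.08, with 25 of 44 above 0. Without FDI6 replicate 1, XRCC3 was the 1 member called lower and FANCB the 1 called higher, and without control_FDI6 replicate 1 BRCA2 and FANCB were the 2 called higher. Over all genes 703 were lower and 1121 higher without FDI6 replicate 1, and 1039 higher without control_FDI6 replicate 1. The members' FDI-6 values moved with base composition, as described further on: once trends of GC content and transcript length were removed, 0 members were called in either direction.

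**Figure D1:**
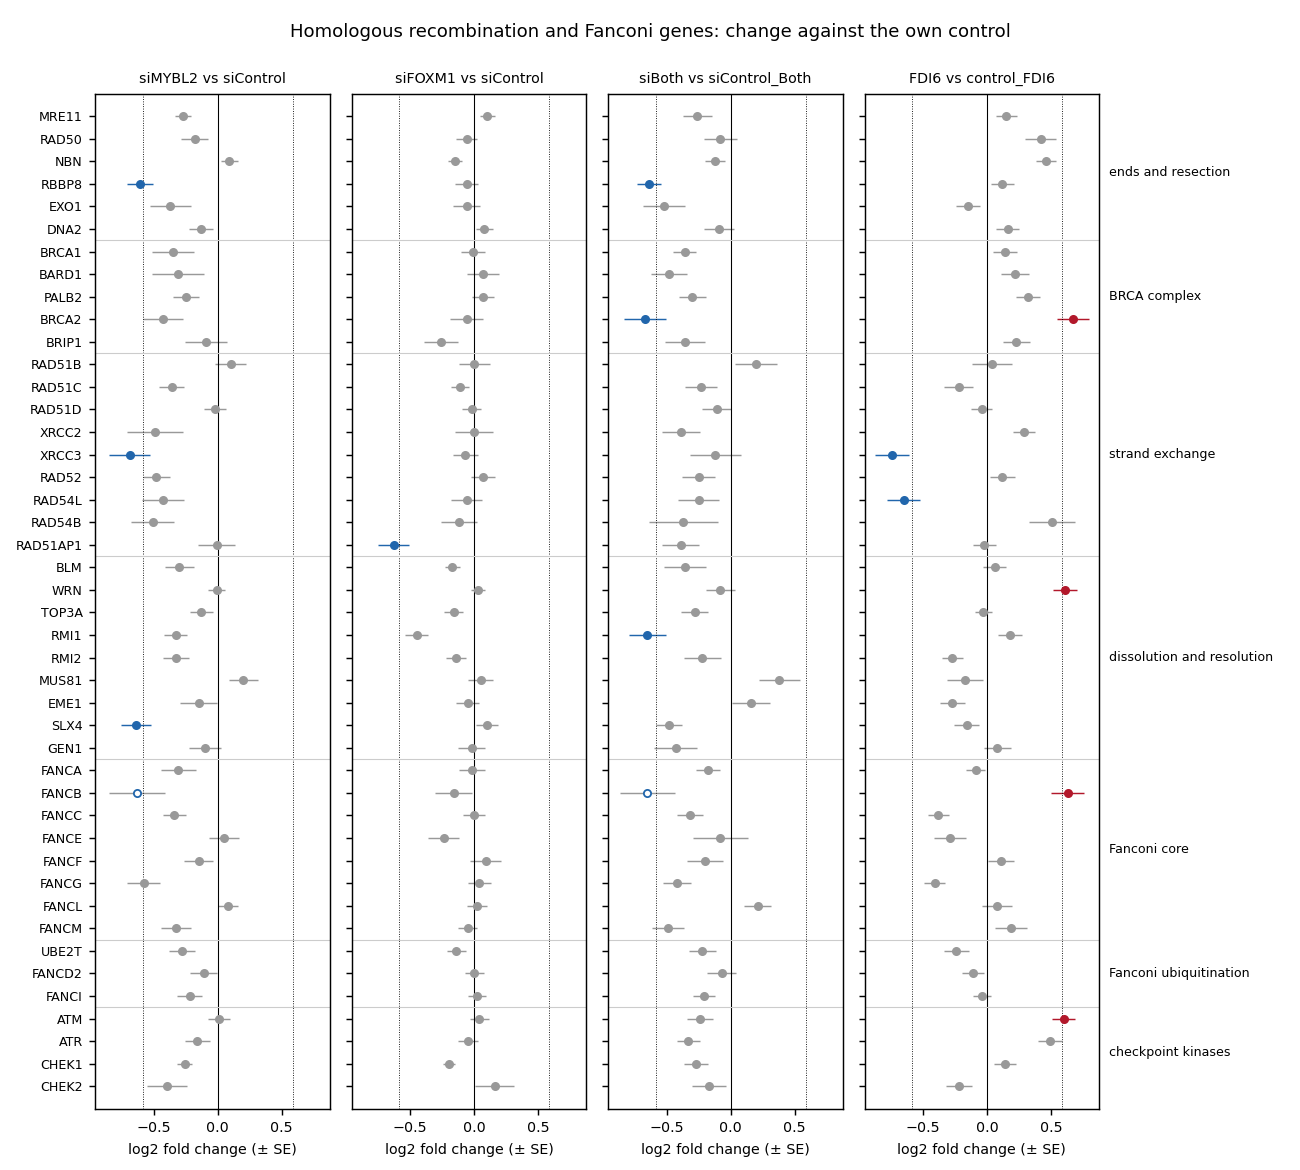
Log2 fold change (x axis, ± SE) of each of the 44 members (y axis, grouped by role) in the 4 comparisons with their own controls. Blue and red points were called lower and higher, open blue circles only with the replicate block, dotted lines mark a fold of 1.5, and most members lie left of 0 with siMYBL2 and siBoth and close to 0 with siFOXM1.

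Among the genes that open and resect broken ends, RBBP8 fell in both experiments that depleted MYBL2. It encodes CtIP, which starts resection together with the MRE11 nuclease, and lies at chr18:22798261-23026488 (hg38, plus strand, 19 exons). It stood at 37.8, 42.2, 32.6 and 34.9 CPM in the siMYBL2 libraries and at 55.7, 60.6, 60.3 and 48.5 CPM in siControl. The groups did not overlap, and the log2 fold change was -0.61 (SE 0.102, adjusted p = 0.00423, edgeR). In siBoth RBBP8 was at 31.3, 30.5 and 30.3 CPM, against 42.6, 50.6 and 50.3 CPM in siControl_Both. This was again a separation without overlap, with a log2 fold change of -0.64 (SE 0.0931, adjusted p = 0.00513). The siFOXM1 libraries (48.9 to 59.2 CPM) lay within the range of siControl (47.99 to 59.98 CPM), and the difference was -0.06 (SE 0.0869, adjusted p = 0.879). The FDI6 libraries held 69.1, 59.0 and 55.0 CPM against 56.4, 53.8 and 58.3 CPM. RBBP8 was just past the fold limit: without siMYBL2 replicate 3 or 4, or siControl replicate 2 or 3, its log2 fold change was -0.56 to -0.58 and it was no longer called. MRE11, the nuclease of the complex that first binds the ends, differed by -0.27 in siMYBL2 (adjusted p = 0.0174), short of the fold limit. Its partners RAD50 and NBN differed by -0.18 and 0.09 there, and the long-range nucleases EXO1 and DNA2 by -0.37 and -0.13, none past the adjusted p, although EXO1 passed it with the block (0.0035).

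The BRCA complex, which carries the recombinase to the resected strand, lay below 0 in all 5 members with siMYBL2 (-0.43 to -0.09) and with siBoth (-0.67 to -0.30). BRCA2 loads the recombinase and lies at chr13:32315086-32400268 (plus strand, 27 exons). It was at 12.4, 10.3 and 14.4 CPM in siBoth and at 16.2, 20.6 and 22.2 CPM in siControl_Both. The groups did not overlap, and BRCA2 fell by 0.67 on the log2 scale (SE 0.167, adjusted p = 0.0373, edgeR). The call was lost without siBoth replicate 1 or 2 or siControl_Both replicate 2 or 3 (-0.68 to -0.55, adjusted p between 0.0876 and 0.122), and with the GC and length correction the log2 fold change was -0.41. In the siMYBL2 libraries it was at 19.1, 26.6, 26.2 and 18.9 CPM against 25.8, 33.3, 36.1 and 27.4 CPM. Those ranges overlapped, and the log2 fold change of -0.43 did not pass the test (adjusted p = 0.0835), although with the block the adjusted p was 5.14e-05. The siFOXM1 group (25.5 to 33.9 CPM) lay inside the siControl range (25.5 to 35.6 CPM).

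FDI-6 went the other way for BRCA2, with 49.8, 39.7 and 34.0 CPM against 25.6, 25.5 and 26.4 CPM. It rose by 0.67 (SE 0.123, adjusted p = 0.00141, edgeR), with no overlap and the highest value in FDI6 replicate 1. Without that library the log2 fold change was 0.51 and the fold limit was no longer reached, and after the GC and length correction it was 0.12 (adjusted p = 0.299). BRCA1, the ubiquitin ligase that steers breaks towards recombination, was at 85.03, 135, 108 and 78.2 CPM in siMYBL2 and at 118, 138, 141 and 119 CPM in siControl. The siMYBL2 libraries were the more spread, and the ranges overlapped at replicate 2 (-0.35, SE 0.161, adjusted p = 0.171, block 0.000722). In siBoth BRCA1 was at 78.7, 76.1 and 84.0 CPM against 92.4, 106 and 109 CPM, with no overlap, and differed by -0.36 (SE 0.0899, adjusted p = 0.0364), short of the fold limit, and by -0.18 after the correction (adjusted p = 0.234). The siFOXM1 value was -0.01 (SE 0.0938), and with FDI-6 BRCA1 stood at 153, 128 and 119 CPM against 113, 124 and 127 CPM. BARD1, the partner of BRCA1, PALB2, which links BRCA1 to BRCA2, and the helicase BRIP1 were called in no comparison. They differed by -0.31, -0.25 and -0.09 with siMYBL2, and by -0.48, -0.30 and -0.36 with siBoth.

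The 9 genes of strand exchange had log2 fold changes of -0.69 to 0.10 with siMYBL2 and of -0.74 to 0.51 with FDI-6. XRCC3, a paralog of the recombinase, fell with siMYBL2 and with FDI-6. It lies at chr14:103697609-103715504 (minus strand, 10 exons), and 76.7% of its exon length overlaps exons on the other strand, where KLC1 lies. The strand setting of the counting is not given in the sources used here. KLC1 itself differed by 0.15 with siMYBL2 and 0.14 with FDI-6, neither past the test, and its part in the XRCC3 values was not tested. XRCC3 was at 12.9, 19.2, 14.7 and 10.9 CPM in siMYBL2 and at 23.6, 22.1, 26.1 and 21.4 CPM in siControl. Every treated library was below every control, and the log2 fold change was -0.69 (SE 0.163, adjusted p = 0.0189, edgeR). Without siMYBL2 replicate 4 it was -0.58, under the fold limit, and without siMYBL2 replicate 1 or siControl replicate 1 or 3 the adjusted p was 0.05 to 0.0624. With FDI-6 XRCC3 was at 17.5, 22.7 and 27.7 CPM against 39.0, 37.9 and 37.0 CPM. The treated libraries were unlike each other but all lower, with a log2 fold change of -0.74 (SE 0.134, adjusted p = 0.00126). It was -0.44 after the GC and length correction (adjusted p = 0.000684). In siBoth the ranges overlapped (16.1, 23.8 and 22.8 CPM against 17.1, 26.6 and 24.1 CPM), and XRCC3 differed by -0.12 (SE 0.200). In siFOXM1 it differed by -0.07 (SE 0.0983).

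RAD51AP1 binds the recombinase and stimulates strand invasion, and lies at chr12:4538798-4560047 (plus strand, 9 exons). It was the 1 member called with siFOXM1, at 22.4, 26.9, 22.5 and 20.4 CPM against 37.6, 37.9, 38.8 and 28.3 CPM. The groups did not overlap, although siControl replicate 4 was low, and the log2 fold change was -0.63 (SE 0.122, adjusted p = 0.044, edgeR). With the block the adjusted p was 2.51e-09. Without the block the call was lost on leaving out any of siFOXM1 replicates 1, 3 or 4 or siControl replicates 1, 2 or 3, with log2 fold changes of -0.62 to -0.58. The GC and length correction brought it to -0.56. With siMYBL2 it was at 31.9, 39.5, 43.0 and 29.2 CPM against 37.9, 38.3, 39.3 and 28.6 CPM, a difference of -0.01 (SE 0.144). With siBoth it was at 13.3, 13.5 and 18.2 CPM against 18.6, 20.5 and 19.9 CPM, below the control without overlap but not past the test (-0.39, adjusted p = 0.111, block 0.0101). With FDI-6 the ranges overlapped and the difference was -0.02 (SE 0.0919).

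RAD54L, a motor protein that moves along the duplex during strand exchange, was called with FDI-6. It lies at chr1:46246461-46278480 (plus strand, 18 exons), with 19.9% of its exon length under exons on the other strand, where LRRC41 lies. LRRC41 differed by -0.03 with FDI-6. RAD54L was at 8.80, 11.6 and 11.4 CPM against 16.8, 17.8 and 15.2 CPM, with no overlap and a log2 fold change of -0.65 (SE 0.129, adjusted p = 0.00228, edgeR). After the GC and length correction it was -0.58, which is just inside the fold limit (adjusted p = 0.00081), and without FDI6 replicate 1 it was -0.53. With siMYBL2 it was at 7.35, 10.3, 9.19 and 6.53 CPM against 11.5, 9.93, 13.1 and 10.3 CPM, ranges that overlap. That difference was -0.43 (adjusted p = 0.102, block 0.00698). RAD52, which anneals single strands, differed by -0.48 with siMYBL2 (adjusted p = 0.0161) and RAD51C, a paralog of the recombinase, by -0.36 (adjusted p = 0.0333), both short of the fold limit. The paralogs RAD51B and RAD51D differed by 0.10 and -0.02, and XRCC2 and the motor protein RAD54B by -0.49 and -0.51, none past the adjusted p. With the block XRCC2 (adjusted p = 0.000103) and RAD54B (0.00515) passed it. By GENCODE V44 exons, RAD54B shares 66% of its exon length with a gene on the same strand, and RAD50 shares 76.9%, so their counts are uncertain.

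**Figure D2:**
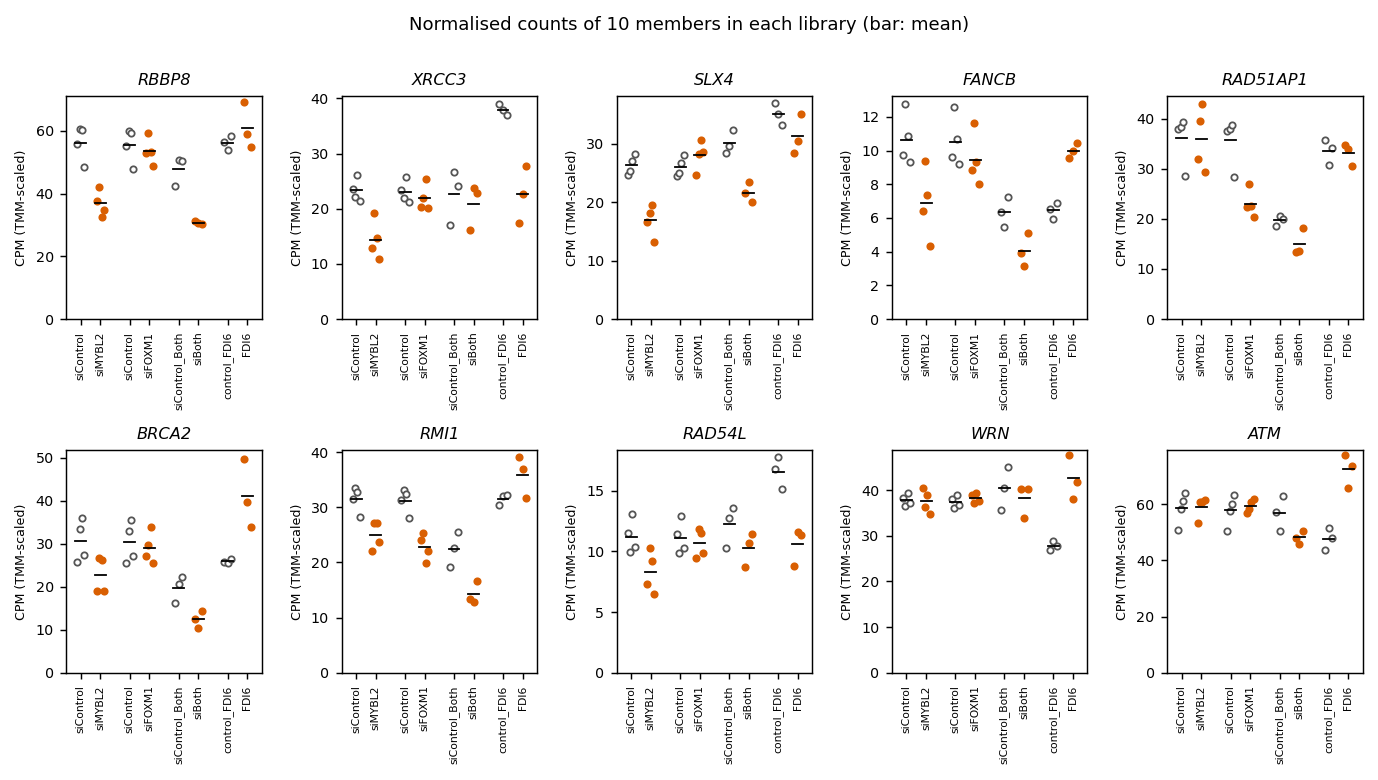
Normalised counts (CPM, y axis from 0) of 10 members in each library, with controls as open circles, treated libraries as filled circles and group means as bars. The 4 siMYBL2 libraries lie below all siControl libraries for RBBP8, XRCC3 and SLX4, and the 3 FDI6 libraries lie above their controls for BRCA2, WRN, ATM and FANCB.

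The genes that dissolve or cut joined molecules differed from one another. SLX4, a scaffold for structure-specific nucleases, lies at chr16:3581181-3611606 (minus strand, 15 exons). It fell with siMYBL2, at 16.6, 18.2, 19.5 and 13.3 CPM against 24.7, 25.3, 27.2 and 28.3 CPM. There was no overlap, and the log2 fold change was -0.64 (SE 0.120, adjusted p = 0.00719, edgeR). Without siMYBL2 replicate 4 it was -0.54, under the fold limit. With siBoth SLX4 was at 21.6, 23.4 and 20.0 CPM against 28.5, 29.7 and 32.4 CPM, again without overlap, but the log2 fold change of -0.48 (SE 0.102, adjusted p = 0.023) was short of the fold limit. With siFOXM1 it was at 24.6 to 30.7 CPM against 24.5 to 28.05 CPM (0.10, SE 0.0828), and with FDI-6 at 28.4 to 35.2 CPM against 33.3 to 37.0 CPM (-0.16, SE 0.0967).

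RMI1 stabilises the BLM and TOP3A complex that dissolves double junctions, and lies at chr9:83980798-84004074 (plus strand, 3 exons). It was below its control without overlap in all 3 siRNA comparisons. In siBoth it was at 13.3, 12.9 and 16.6 CPM against 19.2, 22.7 and 25.5 CPM, and fell by 0.65 on the log2 scale (SE 0.148, adjusted p = 0.0276, edgeR). The call was lost without siBoth replicate 1 or 2 or siControl_Both replicate 2 or 3 (-0.65 to -0.56, adjusted p between 0.0784 and 0.0969), and after the GC and length correction (-0.48, adjusted p = 0.051). In siMYBL2 it was at 22.1, 27.1, 27.2 and 23.8 CPM and in siFOXM1 at 24.0, 25.4, 19.8 and 22.1 CPM, with the shared siControl libraries at 31.6, 33.5, 32.8 and 28.3 CPM on the scale of siMYBL2. The log2 fold changes were -0.33 with siMYBL2 (adjusted p = 0.0353) and -0.45 with siFOXM1 (adjusted p = 0.055, block 1.17e-06), both short of the fold limit. With FDI-6 RMI1 was at 39.0, 37.0 and 31.6 CPM against 30.5, 32.0 and 32.2 CPM, which overlap.

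WRN, the helicase mutated in Werner syndrome, rose with FDI-6, at 47.7, 38.1 and 41.9 CPM against 26.9, 28.9 and 27.7 CPM. The groups did not overlap, and the log2 fold change was 0.61 (SE 0.0961, adjusted p = 0.000527, edgeR). It was 0.20 after the GC and length correction (adjusted p = 0.0507), 0.52 without FDI6 replicate 1 and 0.58 without control_FDI6 replicate 1. In the siRNA comparisons WRN differed by -0.01, 0.03 and -0.08. The other 6 genes of the group were called in no comparison. MUS81, the nuclease that cuts crossed strands with EME1, was the highest member of all 44 with siMYBL2 (0.20) and with siBoth (0.38), neither past the test without the block (adjusted p = 0.239 and 0.161), and both past the adjusted p with it (0.0164 and 0.00821). BLM, TOP3A, RMI2, EME1 and the resolvase GEN1 lay between -0.33 and -0.10 with siMYBL2.

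Of the 8 members of the Fanconi core complex, FANCB was called with FDI-6, and with siMYBL2 and siBoth only when the block was fitted. It helps form the catalytic part of the core complex, and lies at chrX:14690388-14873255 (minus strand, 10 exons). It was at 6.41, 9.36, 7.38 and 4.33 CPM in siMYBL2 and at 9.71, 12.7, 10.8 and 9.29 CPM in siControl. The ranges overlapped only at siMYBL2 replicate 2, and the log2 fold change of -0.63 did not pass the test without the block (SE 0.218, adjusted p = 0.0762, edgeR) and did with it (-0.65, adjusted p = 0.000233). In siBoth FANCB was at 3.89, 3.12 and 5.09 CPM against 6.34, 5.44 and 7.24 CPM, without overlap, again called only with the block (-0.66, adjusted p = 0.00317, against 0.0871 without). With FDI-6 it was at 9.58, 9.95 and 10.4 CPM against 6.51, 5.91 and 6.91 CPM. These groups were well apart, and FANCB rose by 0.63 (SE 0.129, adjusted p = 0.00262). Leaving out FDI6 replicate 1 kept the call, while without control_FDI6 replicate 2 the log2 fold change was 0.57. After the GC and length correction it was 0.39 (adjusted p = 0.0363). FANCG was just short of the fold limit with siMYBL2 (-0.58, adjusted p = 0.0156) and past it after the GC and length correction (-0.60, adjusted p = 0.0122). It differed by -0.42 with siBoth (adjusted p = 0.0441) and -0.41 with FDI-6 (adjusted p = 0.00192). FANCC differed by -0.34 with siMYBL2 (adjusted p = 0.0286) and FANCM, the helicase that recruits the core to DNA, by -0.49 with siBoth (adjusted p = 0.0414, and -0.26 with 0.171 after the correction). FANCA, FANCE, FANCF and FANCL, the ubiquitin ligase of the core, lay between -0.31 and 0.08 with siMYBL2 and were called in no comparison.

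None of UBE2T, FANCD2 and FANCI, which carry the ubiquitination step, was called in any comparison with its control. FANCD2 was at 39.5, 50.9, 51.5 and 41.4 CPM in siMYBL2 and 44.3, 51.5, 53.9 and 48.3 CPM in siControl, a difference of -0.11 (SE 0.106). In siFOXM1 it was at 46.6, 47.0, 51.7 and 50.8 CPM (0.00, SE 0.0728), in siBoth at 38.0, 40.2 and 48.8 CPM against 42.6, 42.6 and 47.8 CPM (-0.07, SE 0.112), and in FDI6 at 56.0, 57.3 and 48.9 CPM against 57.8, 61.9 and 55.5 CPM (-0.11, SE 0.0844). The ranges of FANCD2 overlapped in every comparison. Its partner FANCI was at 123, 152, 156 and 122 CPM in siMYBL2 and 156, 162, 177 and 149 CPM in siControl, with overlap (-0.22, SE 0.0987, adjusted p = 0.159, block 0.00112, edgeR). In siFOXM1 FANCI was at 156, 155, 176 and 158 CPM (0.02, SE 0.0686). In siBoth it was at 133, 138 and 147 CPM against 148, 169 and 164 CPM, below the control without overlap (-0.21, SE 0.0857, adjusted p = 0.153, block 0.0281). With FDI-6 FANCI differed by -0.04 (SE 0.0701). UBE2T, the ubiquitin-conjugating enzyme of the pathway, had the highest level per length of the 44 members in siControl (23.0 ± 0.658 CPM per kb of exon, SD, n = 4) and differed by -0.28 with siMYBL2 (adjusted p = 0.0769, block 0.00235). On that scale RAD51AP1 came next (14.0 ± 1.99) and RBBP8 after it (11.0 ± 1.13), while FANCL was lowest (0.583 ± 0.0415). RBBP8, EXO1 (10.1 ± 1.03) and CHEK1 (10.0 ± 0.187), which followed each other, did not differ beyond their spread. Exon length here joined the exons of all annotated transcripts, 37977 bases for FANCL against 1658 in its canonical transcript. The ranks rest on that choice of length.

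Of the checkpoint kinases, ATM, which is activated by double-strand breaks, rose with FDI-6. It lies at chr11:108223044-108369102 (plus strand, 63 exons). ATM was at 77.5, 65.8 and 73.7 CPM in FDI6 and at 43.5, 51.3 and 47.9 CPM in control_FDI6. The groups did not overlap, and the log2 fold change was 0.60 (SE 0.0890, adjusted p = 0.000349, edgeR). It was 0.55 without FDI6 replicate 1, 0.54 without control_FDI6 replicate 1, and 0.11 after the GC and length correction (adjusted p = 0.253). With siMYBL2 ATM was at 53.3 to 61.4 CPM against 50.7 to 63.9 CPM (0.01, SE 0.0838), with siFOXM1 the difference was 0.04 (SE 0.0749), and with siBoth ATM was at 48.0, 45.8 and 50.5 CPM against 57.1, 50.4 and 62.9 CPM (-0.24, adjusted p = 0.151, block 0.0227). ATR, which responds to single-stranded DNA at forks, differed by -0.33 with siBoth (adjusted p = 0.0443) and 0.49 with FDI-6 (adjusted p = 0.00169), both short of the fold limit. After the GC and length correction these were -0.10 (adjusted p = 0.306) and 0.09 (adjusted p = 0.337). CHEK1, the kinase downstream of ATR, differed by -0.26 with siMYBL2 (adjusted p = 0.0189), -0.20 with siFOXM1 (adjusted p = 0.0892, block 0.000657) and -0.27 with siBoth (adjusted p = 0.107, block 0.0112). CHEK2, downstream of ATM, differed by -0.40 with siMYBL2 (adjusted p = 0.112, block 0.00218), was past the adjusted p with no other control, and was lower in siMYBL2 than in siFOXM1 by a log2 difference of -0.57 (adjusted p = 0.0209), short of the fold limit.

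The effects of the treatments were then compared with one another. Between siMYBL2 and siFOXM1 directly, without the shared controls, 4 members differed. XRCC3 (-0.63, SE 0.167, adjusted p = 0.0251, edgeR), SLX4 (-0.75, SE 0.125, adjusted p = 0.00306) and FANCG (-0.62, SE 0.123, adjusted p = 0.00695) were lower in siMYBL2. RAD51AP1 was higher in siMYBL2 (0.62, SE 0.137, adjusted p = 0.0109). Over all genes 4.34% were called lower and 5.86% higher in siMYBL2. Without siMYBL2 replicate 1 or replicate 3, 2 members were called, and the shares of all genes called in those fits are not given here. The effect of siBoth less that of siMYBL2 was called for 0 of 44 members in either direction, against 0.159% lower and 0% higher of all genes. At an unadjusted p under 0.05, 0 members differed with edgeR, and DESeq2 called 0. The widest differences were those of XRCC3 (0.57, SE 0.276, adjusted p = 0.654) and RAD51AP1 (-0.39, SE 0.219, adjusted p = 0.735). With a block, XRCC3 was called. Its value and the share of all genes called in that fit are not given here, and the shares above are those without a block. The single and double knockdowns were separate experiments that differed in their number of libraries and share of unaligned pairs, and these cannot be told apart from the treatments.

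The effect of FDI-6 less that of siFOXM1 was called for 7 members. RAD54L (-0.59) and XRCC3 (-0.67) were lower with FDI-6, against 4.18% of all genes. BRCA2 (0.73), RAD51AP1 (0.61), RMI1 (0.63), FANCB (0.79) and NBN (0.61) were higher, against 7.32%. Adjusted p-values from edgeR were between 0.000766 for NBN and 0.0348 for RAD54L. RAD51AP1, the member called with siFOXM1, differed by -0.63 with siFOXM1 and by -0.02 with FDI-6. Without FDI6 replicate 1 the count was 1 (FANCB), and after a GC and length correction it was 0. The shares of all genes called in those fits are not given here.

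The FDI-6 values of the members followed the GC content of their transcripts. Across the 44 members, whose GC content ran from 34.9% to 62.8% with a median of 41.8%, the log2 fold change with FDI-6 had a Pearson correlation of -0.75 and a Spearman correlation of -0.80 with GC content. The same correlation was -0.13 (Pearson) with siMYBL2, 0.23 with siFOXM1 and 0.38 with siBoth. These are correlations across genes measured in the same libraries, and genes are not independent replicates. Over 11939 genes whose mean count reached 50 it was -0.48 with FDI-6 and over 12515 genes 0.30 with siBoth, so the relation was not particular to the members. The 4 members that rose with FDI-6 have 36.2% to 38.6% GC, while RAD54L has 53% and XRCC3 62.8%. After a smooth trend of GC content and length was removed from each library, the correlation among the members was -0.32 and the median log2 fold change went from 0.08 to -0.13, with 31 of 44 below 0.

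On that corrected scale 16 members passed the adjusted p as lower and 1, FANCB, as higher, against 16.7% and 14.8% of all genes. The 16 included the FANCD2 and FANCI pair (-0.32 and -0.25), EXO1 (-0.31), GEN1 (-0.35), RAD51C and RAD51D (both -0.33), FANCC (-0.45), XRCC3 (-0.44), RAD54L (-0.58) and BRCA1 (-0.19). Corrected log2 fold changes ran from -0.58 to 0.39, none past the fold limit. Across the 44 members the FDI-6 changes also correlated with transcript length (Pearson 0.51 with its log2, Spearman 0.53). The correction removed both trends together. The direction of the list with FDI-6 thus depends on whether GC content and length are corrected. The part of each in the uncorrected values was not tested further. With siMYBL2 the correction left the median at -0.26 with 37 members below 0.

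**Figure D3:**
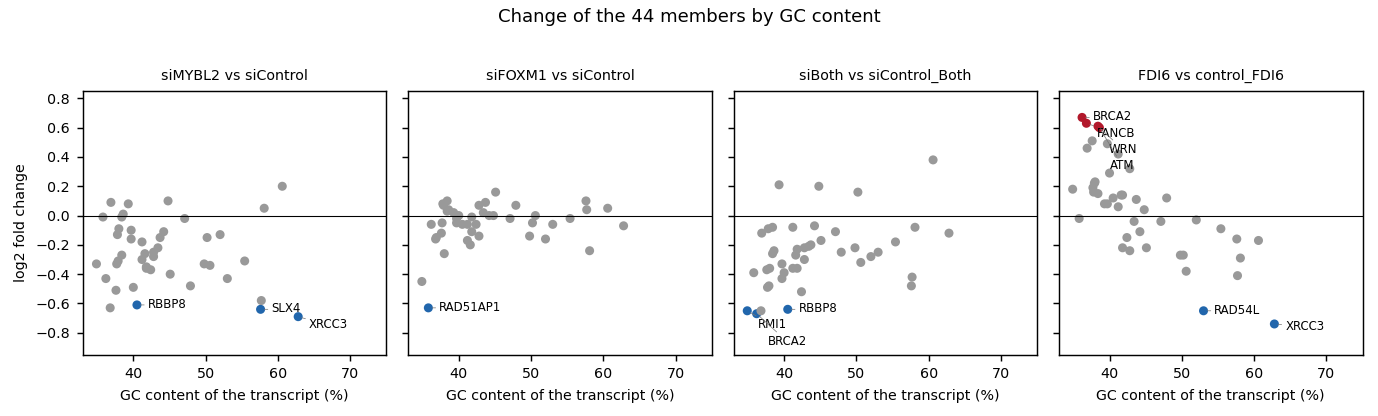
Log2 fold change of the 44 members (y axis) against the GC content of the transcript (x axis, %) in each comparison, with called members in blue (lower) and red (higher). With FDI-6 the points run from upper left to lower right (Pearson correlation -0.75), a slope not seen with siMYBL2 (-0.13).

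**Figure D4:**
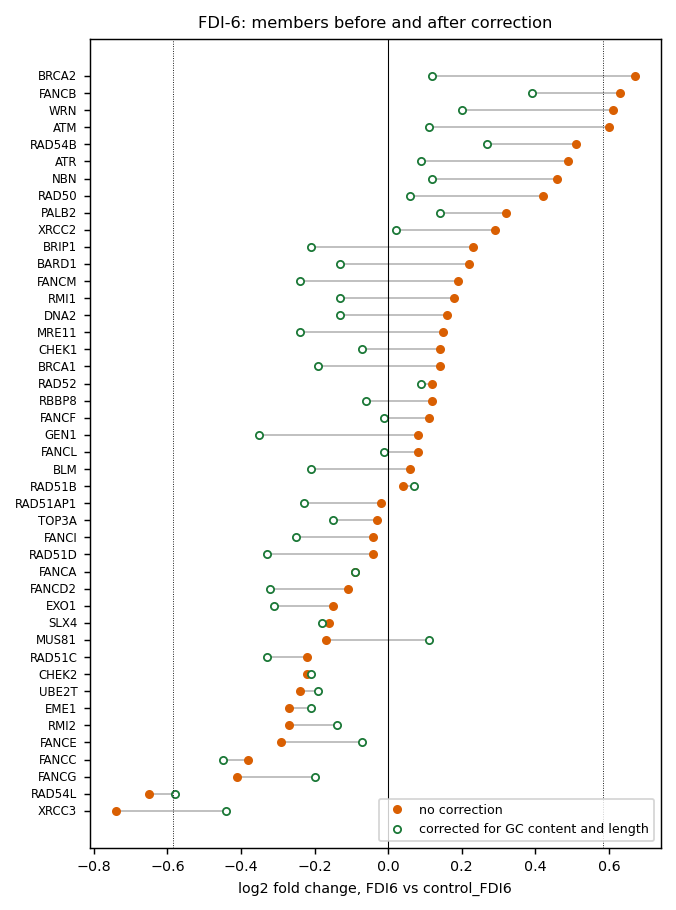
Log2 fold change with FDI-6 of each of the 44 members before (filled) and after (open) correction for GC content and transcript length, with lines joining the values and dotted lines at a fold of 1.5. The median went from 0.08 to -0.13 and no open circle lies beyond the dotted lines.

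Related lists were counted for comparison, by the same call. Of 51 tested genes among 52 other homologous recombination and Fanconi genes, 3 were called lower with siMYBL2 (MCM9, HROB and TOPBP1), 0 with siFOXM1 and 4 with siBoth (TIPIN, MCM9, ABRAXAS1 and TOPBP1). With FDI-6, CENPX and RAD9A fell and RIF1, SFR1 and ABRAXAS1 rose. Their medians were -0.09, -0.03, -0.14 and -0.11 in that order of comparison. Of 9 tested end joining genes, which repair breaks without a sister, 0 were called with siMYBL2 or siFOXM1, PRKDC fell with siBoth and PAXX fell with FDI-6. Cell cycle lists, with the members removed, moved in the same comparisons. Of 54 G2/M genes 17 fell with siMYBL2, 5 with siFOXM1, 30 with siBoth and 4 with FDI-6, with medians of -0.41, -0.13, -0.63 and -0.14. Of 39 tested S-phase genes 7 fell with siMYBL2, 0 with siFOXM1 and 6 with siBoth, and 1 rose with FDI-6, with medians of -0.33, -0.11, -0.35 and -0.06. The part of cell cycle position in the members' values was not tested.

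**Figure D5:**
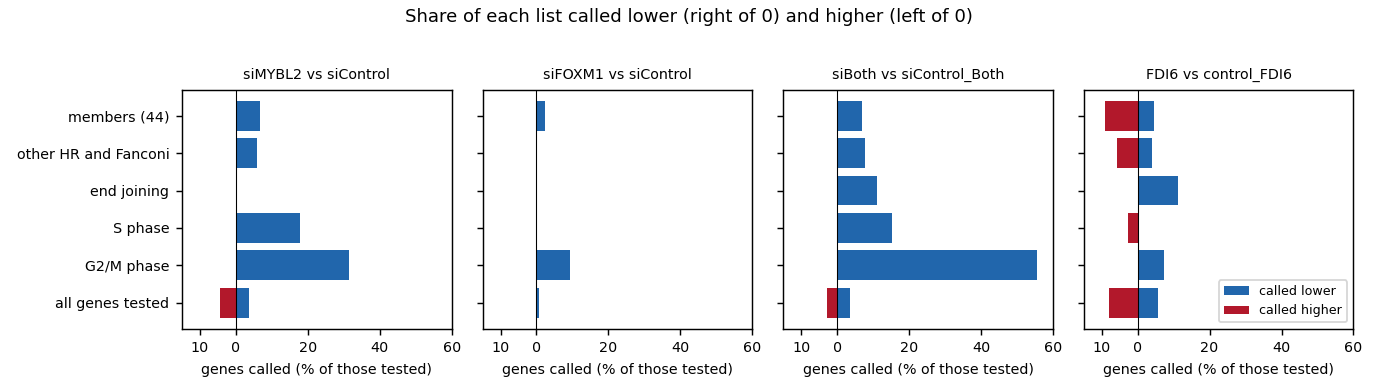
Percentage of the tested genes of each list called lower (blue, right of 0) and higher (red, left of 0) in the 4 comparisons. The 44 members reach 6.82% lower with siMYBL2 and with siBoth, while G2/M genes reach 31.5% and 55.6%.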

How the data were processed

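RNA of A549 cells was sequenced in 24 libraries of 7 groups (polyA RNA, paired ends). The authors trimmed the reads with Trim Galore, aligned them to hg38 with STAR and counted them per GENCODE gene with HTSeq. The deposited values were raw counts of read pairs per gene, 1 table per library. Tool versions and the strand setting of the counting are not given in the sources used here. Each table held 58721 gene rows, of which 58252 identifiers matched GENCODE V44 and 469 did not. Exon overlaps, lengths and GC content were taken from GENCODE V44, a later release than the one the study names for its reads. The overlaps in the release used for counting can differ. Rows that name no gene held 18.5% to 26.2% of the pairs and were left out.

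Each treatment was compared with its own control with edgeR 4.0.16 in R 4.3.3: TMM factors, filterByExpr, a quasi-likelihood F test over all genes without a block, and Benjamini-Hochberg adjustment. A call needed an adjusted p under 0.05 and a fold over 1.5. Differences between treatments were tested in the same way, either directly or as a contrast of effects. The standard error is the log2 fold change over the square root of F. The steps were tested on simulated data with changes larger than the fold limit and without pairing of replicates. That test does not cover calls close to the limit. Same-numbered treated and control libraries deviated together, with correlations of 0.573 to 0.875 for siMYBL2, 0.539 to 0.906 for siFOXM1 and 0.553 to 0.688 for siBoth, so these numbers were taken as pairs and a fit with the replicate number as a block was run beside the main one. This pairing rests on the labels' replicate numbers and on that correlation. Other alternatives were RLE and upper-quartile scaling, other filters on low counts, DESeq2 1.42.0 and removal of GC and length trends. Fits with no limit on the fold and with each library left out were also run. The latter kept the same-numbered partner of the library left out and had no block.

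The members and lists were chosen with earlier results of these data known. Values in every library are given for each comparison with a control in which a member was called, with or without the block. They are also given for BRCA1, BRCA2, FANCD2 and FANCI in most comparisons. In the remaining comparisons these members have all values, a range or a log2 fold change only, or no value in the text. S and G2/M lists came from Seurat 5.3.0. No 2 libraries of the same group agreed within sampling noise, and pairs across groups were not checked.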

Additional observations from a re-analysis of the deposited data

Results flagged for a closer look

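Of 45 groups of 4 values checked over 13 named members and the targets MYBL2 and FOXM1, 3 held a library far from the others by Dixon's ratio at the 95% level, where chance gives about 1 in 20 groups. RAD51AP1 was at 28.55 CPM in siControl replicate 4 (ratio 0.869). This library belongs to the control of the comparison in which RAD51AP1 was called. ATM was at 53.30 CPM in siMYBL2 replicate 1 (ratio 0.903), and FANCI at 175.7 CPM in siFOXM1 replicate 3 (ratio 0.887).

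The effects of 2 treatments differed for several members by edgeR's quasi-likelihood test with Benjamini-Hochberg adjustment. Between siMYBL2 and siFOXM1 the log2 difference was -0.63 for XRCC3, 0.62 for RAD51AP1, -0.75 for SLX4 and -0.62 for FANCG. Between the effects of FDI-6 and siFOXM1 it was 0.61 for NBN, 0.73 for BRCA2, -0.67 for XRCC3, -0.59 for RAD54L, 0.61 for RAD51AP1, 0.63 for RMI1 and 0.79 for FANCB, and after correction for GC content and length 0 of these were called.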

How the results depend on the processing

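Over 806 alternatives of the 13 named members with their controls, 741 kept the side of the threshold and the direction of the call, 57 lost a call, 8 gained one and 0 reversed. Members not called changed sign in 59 of 612 alternatives.

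The counts moved as follows. For siMYBL2, 3 members lower became 4 with the GC and length correction (FANCG added), 5 with the GC and length correction and the replicate block, 10 with no limit on the fold, and 0 to 6 with 1 library left out. Over all genes, the main fit called 565 lower, the correction 582, and the correction with the block 781. No limit on the fold gave 1531, and leaving out 1 library 480 to 660. For siFOXM1, 1 became 0 with the GC and length correction, with or without the block, and 0 to 1 with 1 library left out. The genes lower over all were 94 in the main fit, 79 with the correction and 212 with the block added. They were 55 to 99 with 1 library left out. For siBoth, 3 became 0 with upper-quartile scaling and with the GC and length correction, with or without the block, 8 with no limit on the fold, and 1 to 5 with 1 library left out. Over all genes, 576 were lower in the main fit and 417 with upper-quartile scaling. The correction gave 464, the correction with the block 676, no limit on the fold 1229, and 1 library left out 414 to 683. For FDI-6, 2 lower became 0 with the GC and length correction, with or without the block, 6 with no limit on the fold and 1 to 2 with 1 library left out. The 4 higher became 2 with upper-quartile scaling, 0 with the correction, with or without the block, 10 with no limit on the fold and 1 to 5 with 1 library left out. Over all genes, 879 were lower and 1219 higher in the main fit, and 550 and 782 with the correction. With the block added these were 520 and 746, and with no limit on the fold 2735 and 3200. Upper-quartile scaling called 1035 higher. With 1 library left out, 666 to 1149 were lower and 1039 to 1257 higher. The 4 members that differed between siMYBL2 and siFOXM1 became 2 to 6 with 1 library left out. The 7 that differed between FDI-6 and siFOXM1 became 1 to 11 with 1 library left out and 0 with the correction, which was chosen after the data were seen. The 0 that differed between siBoth and siMYBL2 became 1 with the replicate block. For these differences between treatments, the counts over all genes under each setting are not given. The correction itself removes the GC and length trends, and no limit on the fold drops a criterion. For the other settings the cause was not tested.

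In FDI6 same-numbered libraries correlated at -0.288 to 0.161 and were not taken as pairs, and the block left 2 lower and 4 higher. Over all 15240 genes it gave 840 lower and 1173 higher. Leaving out replicate 4 of all single knockdown groups, also chosen after the data were seen, gave 2 members lower with siMYBL2 (RBBP8 and XRCC3), 1 with siFOXM1 and 3 between them. Over all genes this setting gave 584 of 16104 lower with siMYBL2 and 99 of 15945 with siFOXM1. DESeq2 called 4, 1 and 4 members lower with siMYBL2, siFOXM1 and siBoth, and 2 lower and 4 higher with FDI-6. Over all genes with a count it called 634 of 34463, 134 of 33926 and 662 of 31695 lower in the siRNA comparisons. With FDI-6 it called 733 lower and 1081 higher of 31659. Most calls lie close to a fold of 1.5, and counts of members in a library run down to 39.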
